A study of Mus musculus with 9 samples.

Results

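The 10 transcription factors followed in oocyte RNA sequencing data are known to build or maintain the oocyte lineage of the mouse: Figla, Nobox, Sohlh1, Sohlh2, Lhx8, Tbpl2, Taf4b, Pou5f1, Sall4 and Stat3. The 10 genes were taken by name, though with earlier results of these data known, and each has a row of its own among the 24228 gene rows used. Of the 10, 9 passed the filter on low values (an FPKM of 1 or more in 3 or more of the 9 libraries) and were among the 10801 genes tested. FPKM is the number of sequenced fragments of a gene per kilobase of transcript and per 1000000 fragments of the library. The exception was Sohlh1, which is described by its values alone.

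The libraries were made from fully grown C57BL/6 mouse oocytes still in prophase arrest, the germinal vesicle stage, collected 46 h after priming the females with 5 IU of PMSG, a gonadotropin that makes follicles grow. The 3 groups, of 3 libraries each, were wild type (WT), oocytes with a conditional knockout of Mtor driven by Gdf9-Cre (MG), and oocytes with a conditional knockout of Mtor driven by Zp3-Cre (MZ). Mtor is the kinase gene of mTOR signalling, which controls translation and growth, and both Cre transgenes act in oocytes, with Gdf9-Cre starting in smaller follicles than Zp3-Cre. All groups received PMSG. The design text has 23-day-old females and the sample labels 6 months, a conflict that was not resolved. No label ties the libraries of a group to separate animals, so p-values set group differences against the spread of these libraries only, which may be technical.

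Oocytes are set aside from the germline and enclosed in primordial follicles under a small set of germ cell transcription factors. Figla, Sohlh1 and Sohlh2 are basic helix-loop-helix proteins, a class that binds E-boxes (CANNTG), while Nobox and Lhx8 are homeobox proteins, and loss of any of these factors depletes oocytes early. Tbpl2 and Taf4b are germline versions of parts of the general transcription machinery. Pou5f1 and Sall4 are best known from pluripotent cells and are also present in oocytes, and Stat3 carries cytokine signals to the nucleus.

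Some features of the libraries bear on every value below. Summed FPKM was 652537 ± 67110 in WT, 498936 ± 64355 in MG and 670216 ± 10778 in MZ (SD, n = 3 each), with no overlap between MG and either other group (p = 0.10 both times by a two-sided exact permutation test, the smallest that 3 against 3 libraries allow). The lowest sum, 428329, was that of MG 3. A single fragment in a transcript of 1 kb was worth between 1.32 FPKM (MG 3) and 2.38 FPKM (MZ 1), so values of a few FPKM rest on a handful of fragments. The 10 oocyte markers summed to between 20506 and 23844 FPKM in WT libraries, between 10816 and 25005 in MG libraries, and between 24940 and 26180 in MZ libraries, again with MG 3 lowest. Gdf9 made up most of each sum (7327 FPKM in MG 3). Not all markers were low in MG 3: Ddx4 (20.7 FPKM) and Kit (63.8 FPKM) were higher there than in every WT library. The 13 granulosa and cumulus markers summed to 32.6 to 41.1 FPKM in WT, 28.3 to 43.5 in MG and 28.5 to 36.4 in MZ, and their defining members Foxl2 and Amhr2 were listed at 0 in all 9 libraries. Of the 13, 9 were above 0 in some WT library, 11 in some MG library and 9 in some MZ library. Kitl, the granulosa ligand of Kit, was at 0.634 ± 0.451 FPKM in WT, 4.30 ± 1.94 in MG and 2.88 ± 0.926 in MZ, with both knockouts above WT in every library. Nr5a2 was at 1.17 ± 0.629, 4.17 ± 1.19 and 2.87 ± 1.73 FPKM, with MG above WT in every library. The 13 did not move together. Cyp19a1, the highest of them, was at 22.6 ± 5.28, 13.1 ± 4.97 and 14.6 ± 0.727 FPKM, with MZ below WT in every library. Fshr had lower means in both knockouts (2.25 ± 1.57, 1.27 ± 1.57 and 0.337 ± 0.584 FPKM). Gata4 had a lower mean in MG (7.36 ± 3.90, 4.91 ± 1.25 and 7.35 ± 0.672 FPKM). The libraries overlapped for both. The part of these markers in the results was not tested. The 7 theca and stroma markers summed to 21.6 to 29.5, 19.3 to 31.8 and 16.3 to 52.4 FPKM in the same order, with Lhcgr listed at 0 throughout, and the 4 blood markers to 4.71 to 8.70, 2.80 to 23.8 and 2.18 to 19.2 FPKM. The libraries labelled MG and MZ had 5.29 ± 0.683 and 5.20 ± 1.18 FPKM of Mtor itself, and the WT libraries 3.17 ± 0.200 (SD, n = 3 each), with log2 fold changes of 0.59 (limma adjusted p = 0.36) and 0.56 (limma adjusted p = 0.80) against WT. This value covers the whole gene, including exons outside the deleted stretch, and does not check the deletion, so MG and MZ name the libraries by their labels. FPKM is relative to the fragments of its library, so in bulk samples such as these it shows neither the number of oocytes nor the RNA per oocyte.

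The factors ranged from some of the oocyte's most abundant transcripts to ones barely detected. In WT the order of mean FPKM was Nobox (395), Sall4 (248), Lhx8 (150), Pou5f1 (72.3), Figla (43.3), Stat3 (12.2), Tbpl2 (5.38), Taf4b (4.41), Sohlh2 (1.27) and Sohlh1 (0.606). Nobox was at rank 254 of the 24228 rows in WT, Sall4 at rank 404, Lhx8 at rank 628, Pou5f1 at rank 1167 and Figla at rank 1781, while Stat3, Tbpl2 and Taf4b were at ranks 3991, 5803 and 6268. Neighbours whose 3 WT values overlapped were Sall4 and Lhx8, Pou5f1 and Figla, Tbpl2 and Taf4b, and Sohlh2 and Sohlh1, so the order within those pairs is not settled by these libraries. The same order of means held in MG and in MZ. In MG the neighbours that overlapped were Nobox and Sall4, and Pou5f1 and Figla, whereas in MZ only Tbpl2 and Taf4b did.

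**Figure D1:**
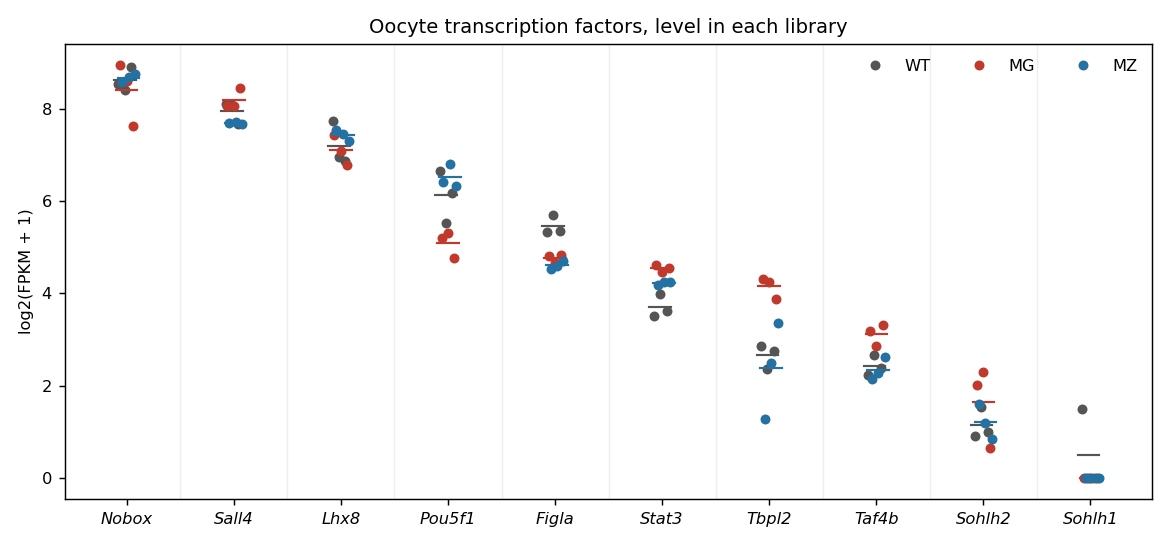
Level of each of the 10 factors in each library, as log2(FPKM + 1) on the vertical axis, with WT in grey, MG in red and MZ in blue. Points are libraries and short lines are group means. Nobox, Sall4 and Lhx8 sit highest, Pou5f1 is lower in all 3 MG libraries than in all others, Figla is highest in WT, and Sohlh1 is above 0 in a single WT library.

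Since Figla, Sohlh1 and Sohlh2 bind E-boxes, the 250 bases before the RefSeq start were searched for that motif in 8 of the 10 genes (not Taf4b and Sall4), from RefSeq promoters on GRCm38.p6. Of these and their targets, 5 are shown: Zp3, a zona pellucida gene that Figla is known to activate through an E-box, then Figla, Pou5f1 and Tbpl2, the 3 factors with the largest fitted log2 differences between groups, and Sohlh1, the factor with the most E-boxes. Each is printed 5′ to 3′ on the gene's strand from base -250 to base -41, a stretch of 210 bases that overlaps no GENCODE M21 exon, with every CANNTG in capitals.
Zp3: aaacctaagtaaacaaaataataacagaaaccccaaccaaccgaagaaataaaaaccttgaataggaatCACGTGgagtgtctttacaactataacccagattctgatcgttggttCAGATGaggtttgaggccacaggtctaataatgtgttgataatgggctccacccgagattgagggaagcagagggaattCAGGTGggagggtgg
Figla: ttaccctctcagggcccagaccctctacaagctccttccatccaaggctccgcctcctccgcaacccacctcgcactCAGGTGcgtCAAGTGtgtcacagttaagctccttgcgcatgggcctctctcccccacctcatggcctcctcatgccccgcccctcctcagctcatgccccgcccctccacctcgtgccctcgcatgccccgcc
Pou5f1: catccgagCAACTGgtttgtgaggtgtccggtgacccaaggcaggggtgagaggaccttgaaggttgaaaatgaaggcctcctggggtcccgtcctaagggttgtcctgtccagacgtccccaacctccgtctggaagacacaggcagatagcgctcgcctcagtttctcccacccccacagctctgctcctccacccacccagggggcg
Tbpl2: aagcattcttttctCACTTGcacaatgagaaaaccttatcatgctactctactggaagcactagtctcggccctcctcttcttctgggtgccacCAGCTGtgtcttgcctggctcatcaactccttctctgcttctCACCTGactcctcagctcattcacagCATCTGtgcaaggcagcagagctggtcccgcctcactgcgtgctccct
Sohlh1: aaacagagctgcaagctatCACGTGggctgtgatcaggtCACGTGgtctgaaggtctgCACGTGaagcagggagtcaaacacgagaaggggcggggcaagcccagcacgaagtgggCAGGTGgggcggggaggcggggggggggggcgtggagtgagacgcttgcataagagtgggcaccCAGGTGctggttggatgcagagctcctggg
These lie at chr5:135979855-135980064 (plus strand) for Zp3, chr6:86016941-86017150 (plus) for Figla, chr17:35505782-35505991 (plus) for Pou5f1, chr2:24096636-24096845 (minus) for Tbpl2 and chr2:25847289-25847498 (minus) for Sohlh1. The stretch of Figla is before its RefSeq start but inside the gene as GENCODE M21 gives it, which begins at 86016171.

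Over the full 250 bases, CANNTG, whose reverse complement is again CANNTG so that 1 search covers both strands, occurred 3 times before Zp3 (first bases at -181, -134 and -55), 2 times before Figla (-173 and -164), 4 times before Tbpl2 (-236, -156, -114 and -88), 1 time before Pou5f1 at its first listed start (-242), and 5 times before Sohlh1 (-231, -211, -192, -134 and -70). Before the second listed start of Pou5f1 it occurred 2 times (-143 and -51). Nobox had 2, Sohlh2 and Stat3 had 1 each, and Lhx8 had none, so 7 of the 8 matched factors had at least 1. The motif is common: 66.2% of 32851 RefSeq promoters had at least 1 in the same window, 31.8% at least 2 and 12.2% at least 3. The 3 most distal matches before Sohlh1 were all CACGTG, a form present at least once in 6.02% of promoters and at least 3 times in 0.0609%. Zp3 carried CACGTG at -181. On both strands, none of the 8 factors had TAATTG or TAATTA (homeobox type, in 11.3% of promoters), ATGCAAAT (the octamer bound by POU factors, 1.60%), TTCNNNGAA (the STAT type, 7.02%) or TATAAA (12.4%). A match is a description of the letters in this window, and no binding was measured here.

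Figla, the E-box binding protein that starts zona pellucida gene expression, was at its highest in the WT oocytes. Its FPKM was 39.2, 50.9 and 39.8 in the WT libraries, 27.2, 24.2 and 27.3 in the MG libraries, and 22.1, 23.0 and 25.1 in the MZ libraries. All 6 knockout values lay below all 3 WT values, and the MG and MZ values overlapped. The means were 43.3 ± 6.59, 26.3 ± 1.77 and 23.4 ± 1.56 FPKM (SD, n = 3 each), 1.65-fold lower in MG and 1.85-fold lower in MZ than in WT. On the log2(FPKM + 1) scale used for every fold change from the fit, the difference was -0.69 ± 0.20 (SE) in MG relative to WT (limma adjusted p = 0.13) and -0.85 ± 0.20 in MZ relative to WT (limma adjusted p = 0.43), neither past the threshold of 0.05. Summed over its 3 libraries, each group had few fragments behind these values, about 45 (WT), 34 (MG) and 29 (MZ). Figla (chromosome 6, 86016171 to 86020996, plus strand, GRCm38) has the shortest transcript of the set, at 759 bp.

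The gap between MG and WT for Figla depended on the scale. As FPKM per 1000000 of the library's summed FPKM, Figla was 54.5, 87.0 and 60.8 in the WT libraries, 49.1, 47.1 and 63.8 in the MG libraries, and 32.6, 34.0 and 38.2 in the MZ libraries. On this scale MG overlapped WT, and MZ lay below both. Of all tested genes, 28.1% were higher in all MG than in all MZ libraries on it. The share lower in all MZ than in all WT libraries was not counted. With every library scaled to the same FPKM sum the log2 fold change of Figla was -0.31 in MG relative to WT (limma adjusted p = 0.47) and -0.89 in MZ relative to WT (limma adjusted p = 0.70). That scaling moved the median of all tested genes from 0.04 to 0.36 for MG against WT and to 0.39 for MG against MZ, so Figla stood below the median gene of MG against WT on both scales.

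Sohlh1 and Sohlh2, partner proteins that act in germ cells and primordial follicles, were near the limit of detection. Sohlh1 was at 1.82 FPKM in WT 1, about 1 fragment, and was listed at 0 in the other 8 libraries. Sohlh2 was at 0.878, 1.92 and 0.996 FPKM in the WT libraries, 3.04, 3.92 and 0.568 in the MG libraries, and 2.03, 1.30 and 0.809 in the MZ libraries. These values rest on 1 to 5 fragments per library and the groups overlapped in every comparison. The log2 fold change of Sohlh2 was 0.50 ± 0.49 in MG relative to WT (limma adjusted p = 0.64), and a difference was not detectable at this depth. Sohlh1 is on chromosome 2 (25842995 to 25847248, minus strand) and Sohlh2 on chromosome 3 (55182028 to 55209957, plus strand).

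Nobox, a homeobox activator of Gdf9 and of many other oocyte genes, had the highest mean of the factors in all 3 groups. It was at 370, 337 and 479 FPKM in the WT libraries, 494, 389 and 196 in the MG libraries, and 383, 411 and 429 in the MZ libraries. The groups overlapped in all 3 comparisons, and the lowest value was that of MG 3, the library with the lowest summed FPKM and the lowest oocyte marker sum. Whether those differences had a part in the Nobox value was not tested. The log2 fold change was -0.22 ± 0.29 in MG relative to WT (95% interval -0.87 to 0.43, limma adjusted p = 0.74) and 0.06 ± 0.29 in MZ relative to WT (95% interval -0.59 to 0.71, limma adjusted p = 0.99). The sign for MG against WT turned with scaling to the same FPKM sum (0.17) and with quantile normalization (0.26), and without MG replicate 3 (0.17). Nobox lies on chromosome 6 (43303674 to 43309554, minus strand).

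Lhx8, a LIM homeobox protein needed for the passage from primordial to growing follicle, was likewise spread over the same range in all groups. Its FPKM was 211, 123 and 116 in the WT libraries, 171, 135 and 109 in the MG libraries, and 186, 174 and 156 in the MZ libraries. WT 1 was the highest of all 9, and the groups overlapped in every comparison. The log2 fold change was -0.08 ± 0.25 in MG relative to WT (95% interval -0.64 to 0.47, limma adjusted p = 0.90), 0.25 ± 0.25 in MZ relative to WT (95% interval -0.30 to 0.80, limma adjusted p = 0.90) and -0.33 ± 0.25 in MG relative to MZ (95% interval -0.88 to 0.22, limma adjusted p = 0.54). Its sign for MG against WT also turned with the same FPKM sum (0.30) and with quantile normalization (0.25), and without WT replicate 1 (0.19) or MG replicate 3 (0.07). Lhx8 is on chromosome 3 (154306294 to 154330659, minus strand).

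Tbpl2, the germline relative of the TATA-binding protein that takes its place in growing oocytes, had the largest fold difference of the set. Its FPKM was 6.30, 4.13 and 5.71 in the WT libraries, 18.9, 18.0 and 13.8 in the MG libraries, and 1.45, 4.67 and 9.28 in the MZ libraries. All 3 MG libraries were above all 6 others, while the MZ libraries spread to both sides of WT. Means were 5.38 ± 1.12, 16.9 ± 2.72 and 5.13 ± 3.94 FPKM (SD, n = 3 each), so MG was 3.14-fold higher than WT and 3.29-fold higher than MZ. The log2 fold change was 1.49 ± 0.46 in MG relative to WT (limma adjusted p = 0.14) and 1.77 ± 0.46 in MG relative to MZ (limma adjusted p = 0.089), and neither passed. The authors' deposited table gives Tbpl2 a q-value of 0.035608 for MG against MZ. For WT against MG its deposited p-value and q-value are both at their maximum, which can stand for a gene that was not tested. Few fragments stood behind these values, about 10 (WT), 39 (MG) and 12 (MZ) in all.

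As a comparison chosen after its values were seen, Tbp, the general TATA-binding protein gene, was at 75.7 ± 14.1 FPKM in WT, 76.9 ± 19.5 in MG and 48.7 ± 4.96 in MZ (SD, n = 3 each), above Tbpl2 in every library. Its log2 fold change was 0.01 ± 0.22 in MG relative to WT (limma adjusted p = 0.99) and 0.63 ± 0.22 in MG relative to MZ (limma adjusted p = 0.18). Tbpl2 (chromosome 2, 24071721 to 24096595, minus strand) and Tbp are separate genes, and no row of the table overlaps that of Tbpl2.

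Taf4b, the gonadal form of a TFIID subunit, was low and was highest in MG. Its FPKM was 3.72, 5.31 and 4.22 in the WT libraries, 8.15, 6.31 and 8.92 in the MG libraries, and 3.46, 3.87 and 5.14 in the MZ libraries. The MG values were above all WT and MZ values, which overlapped each other. The mean was 1.77-fold higher in MG than in WT and 1.88-fold higher than in MZ, with log2 fold changes of 0.70 ± 0.31 (limma adjusted p = 0.28) and 0.77 ± 0.31 (limma adjusted p = 0.22). The gene is on chromosome 18, with a transcript of 5149 bp, and about 31, 70 and 35 fragments in WT, MG and MZ lay behind its values. Taf4a, its general counterpart and again chosen after its values were seen, was at 16.1 ± 5.05, 17.5 ± 4.59 and 15.9 ± 2.61 FPKM (SD, n = 3 each).

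Pou5f1, which encodes the POU factor Oct4, was lowest in MG. Its FPKM was 100, 44.9 and 71.6 in the WT libraries, 35.6, 38.5 and 26.4 in the MG libraries, and 84.5, 110 and 79.7 in the MZ libraries. Every MG value lay below every WT and MZ value, with WT 2 the nearest to MG, and WT and MZ overlapped. The means were 72.3 ± 27.7, 33.5 ± 6.30 and 91.4 ± 16.3 FPKM (SD, n = 3 each), 2.16-fold lower in MG than in WT and 2.73-fold lower than in MZ.

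The fitted log2 fold change of Pou5f1 was -1.03 ± 0.29 in MG relative to WT (limma adjusted p = 0.12) and -1.42 ± 0.29 in MG relative to MZ (limma adjusted p = 0.073). For MG against MZ it passed in 2 of 19 alternative analyses. These were with only the 2 groups compared in the fit (limma adjusted p = 0.044) and without WT replicate 1 (limma adjusted p = 0.027). In these 2 settings the number of all genes called rose from 14 to 73 and to 214. Over all 19 the limma adjusted p of Pou5f1 ran from 0.027 to 0.24. The authors' deposited table gives Pou5f1 q-values of 0.0119268 for WT against MG and 0.000638927 for MG against MZ. On the scale of FPKM per 1000000 of the library's summed FPKM, Pou5f1 was 139, 76.9 and 109 in the WT libraries, 64.2, 74.9 and 61.7 in the MG libraries, and 125, 163 and 121 in the MZ libraries, so MG was still lowest with a narrow gap to WT 2. Pou5f1 is on chromosome 17 (35506018 to 35510772, plus strand).

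Sall4, a zinc finger protein of pluripotent cells and the germline, had the second highest mean in each group, though its WT values overlapped those of Lhx8 and its MG values those of Nobox. Its FPKM was 272, 268 and 203 in the WT libraries, 267, 265 and 348 in the MG libraries, and 204, 209 and 201 in the MZ libraries. The MG values were all above the MZ values, WT overlapped both, and MG 3 was the highest of all. The mean in MG was 1.43-fold that in MZ, with a log2 fold change of 0.51 ± 0.18 (limma adjusted p = 0.18). For MG against WT the log2 fold change was 0.24 ± 0.18 (limma adjusted p = 0.52), and that of MZ to WT was -0.26 ± 0.18 (limma adjusted p = 0.85). Per 1000000 of the library's summed FPKM, Sall4 was at 378, 459 and 311 in WT, at 481, 516 and 812 in MG and at 300, 310 and 306 in MZ. On that scale the 3 groups did not overlap, in the order MZ, WT and MG. The share of all tested genes with MZ below WT, or with all 3 groups apart, was not counted on that scale. Sall4 lies on chromosome 2 (168748332 to 168767943, minus strand).

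Stat3, the transcription factor that Janus kinases phosphorylate when gp130-type receptors are engaged, was lowest in WT. Its FPKM was 10.4, 14.8 and 11.3 in the WT libraries, 23.6, 21.0 and 22.5 in the MG libraries, and 17.2, 18.1 and 18.0 in the MZ libraries. The 3 groups did not overlap, in the order WT, MZ and MG. Means were 12.2 ± 2.30, 22.4 ± 1.32 and 17.8 ± 0.513 FPKM (SD, n = 3 each), 1.83-fold higher in MG and 1.46-fold higher in MZ than in WT. Pair by pair, 11.6% of all tested genes had MG above WT without overlap, 5.67% MZ above WT and 12.8% MG above MZ. The share with all 3 groups apart was not counted.

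For Stat3 the log2 fold change was 0.84 ± 0.22 in MG relative to WT (limma adjusted p = 0.12), 0.52 ± 0.22 in MZ relative to WT (limma adjusted p = 0.77) and 0.32 ± 0.22 in MG relative to MZ (limma adjusted p = 0.51). None passed. The authors' deposited table gives Stat3 a q-value of 0.0189484 for WT against MG. About 100, 232 and 174 fragments in WT, MG and MZ stood behind these values. Stat3 lies on chromosome 11 (100885098 to 100939540, minus strand), and its longest transcript, of 6042 bp, is the longest of the set. Stat3, Taf4b and Tbpl2 remained higher in all MG libraries than in all WT and MZ libraries per 1000000 of summed FPKM, as was Sall4. On that scale 21.2% of all tested genes were higher in all MG than in all WT libraries, and 28.1% higher in all MG than in all MZ libraries.

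**Figure D2:**
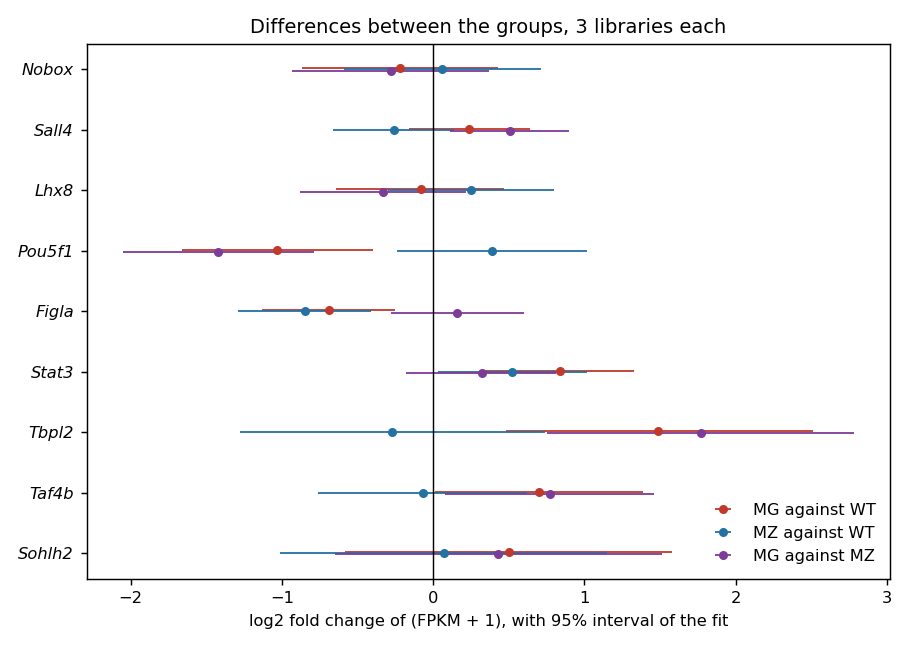
Log2 fold change of (FPKM + 1) with its 95% interval from the limma fit for the 9 tested factors, in MG against WT (red), MZ against WT (blue) and MG against MZ (purple), with 3 libraries in each group. The intervals of Pou5f1 and Figla for MG against WT lie below 0 and those of Stat3, Tbpl2 and Taf4b above it, but these intervals are not adjusted for the number of genes and no factor passed the adjusted threshold.

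The comparison of MG with WT sets the libraries labelled with the earlier Cre beside those of wild type. Among the factors, Pou5f1 and Figla had lower values in every MG library than in every WT library, and Stat3, Taf4b and Tbpl2 had higher values. Nobox, Lhx8, Sall4 and Sohlh2 overlapped. By limma, 0 of the 9 tested factors passed an adjusted p of 0.05, where 0.343% of all tested genes did. At an unadjusted limma p under 0.05 there were 5 of 9, the same 5, beside 17.7% of all tested genes, and the groups did not overlap for 5 of 9 beside 21.5%. Of these, 3 were higher in MG, beside 11.6% of all tested genes, and 2 lower, beside 9.89%. The authors' deposited table has a q-value under 0.05 for 2 of the 10, Pou5f1 and Stat3, beside 1.84% of all rows. Here and below, all rows include the many that did not pass the filter on low values, whereas 9 of the 10 factors passed it. For Sohlh1, Sohlh2, Tbpl2 and Taf4b the deposited p-value and q-value are both at their maximum, so these may not have been tested.

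MZ and WT were compared in the same way for the later Cre. Here only Figla, which was lower in MZ, and Stat3, which was higher, had groups that did not overlap among the 9 tested factors, where 12.2% of all tested genes did so (5.67% higher and 6.52% lower). By limma, 0 of 9 passed the adjusted threshold, beside 0.0370% of all tested genes, and 2 of 9 had an unadjusted p under 0.05, beside 6.30%. In the authors' deposited table no factor has a q-value under 0.05 for this pair, beside 0.351% of all rows. For Sohlh1, Sohlh2, Tbpl2, Taf4b and Stat3 the deposited p-value and q-value are both at their maximum, so these may not have been tested. The remaining factors had log2 fold changes between -0.27 ± 0.46 (Tbpl2) and 0.39 ± 0.29 (Pou5f1).

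The comparison of MG with MZ sets the knockouts side by side. Pou5f1 was lower in every MG library than in every MZ library, and Sall4, Stat3, Taf4b and Tbpl2 were higher, so the groups did not overlap for 5 of 9 factors, beside 25.2% of all tested genes (12.8% higher and 12.3% lower). By limma, 0 of 9 passed the adjusted threshold, beside 0.130% of all tested genes, and 4 of 9 had an unadjusted p under 0.05, beside 17.6%. Figla, for which MG and MZ were both below WT, differed between them by 0.16 ± 0.20 (95% interval -0.28 to 0.60, limma adjusted p = 0.73). The authors' deposited table has q-values under 0.05 for 2 of the 10, Pou5f1 and Tbpl2, beside 4.03% of all rows. Sohlh1, Sohlh2 and Taf4b have both deposited values at their maximum for this pair and may not have been tested. The 3 comparisons share libraries in pairs, so their values for a gene are not independent of each other.

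The place of a factor within its own library does not use the summed FPKM. As the percent of tested genes at or below it, Stat3 was at 60.5, 66.8 and 61.8 in the WT libraries, 75.3, 73.4 and 74.7 in the MG libraries, and 70.0, 70.8 and 70.7 in the MZ libraries. Pou5f1 was at 91.5, 84.7 and 88.9 in the WT libraries, 81.9, 83.4 and 77.6 in the MG libraries, and 90.5, 92.3 and 90.3 in the MZ libraries. Tbpl2 was at 50.8, 40.0 and 47.9 in WT and 71.2, 70.5 and 65.2 in MG. These factors kept groups that did not overlap for MG against WT on this measure, as did Taf4b and Figla (82.0, 86.1 and 82.2 in WT against 77.8, 76.0 and 78.2 in MG), and Sall4 did so here as well (96.3, 96.9 and 95.6 in WT against 97.1, 97.3 and 98.4 in MG). These are 6 of the 9 tested factors, beside 18.9% of all tested genes.

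**Figure D3:**
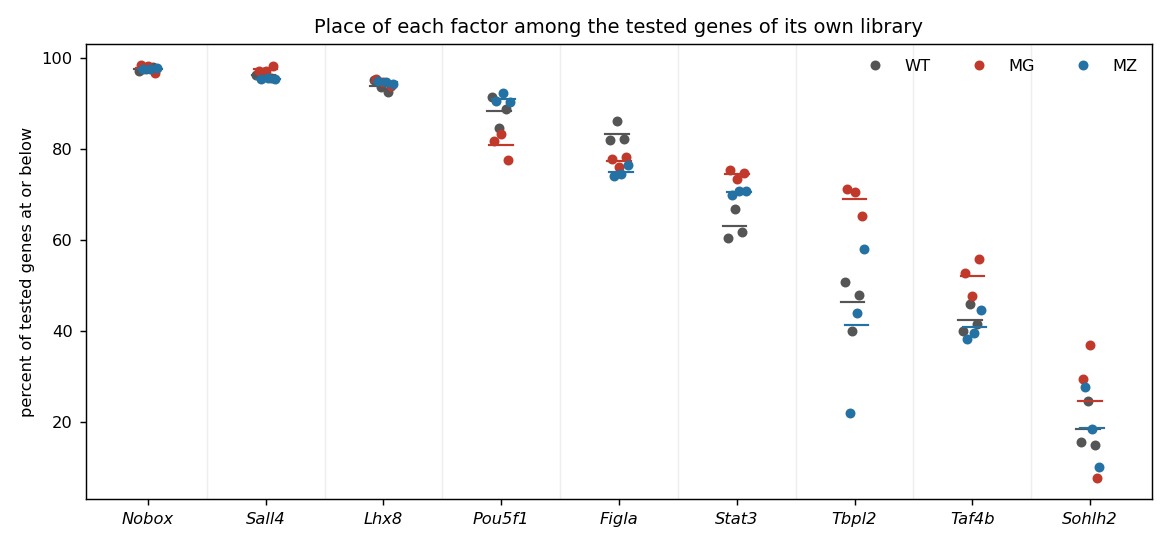
Percent of the tested genes at or below each of the 9 tested factors within the same library, on the vertical axis, with WT in grey, MG in red and MZ in blue. Points are libraries and short lines are group means. Stat3 and Tbpl2 sit higher in all MG libraries than in all WT libraries and Figla and Pou5f1 lower, and Nobox stays above 96 in all 9.

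Transcript length moved with the difference between MG and WT over all genes. The median log2 fold change was -0.26 for genes with transcripts under 1 kb (the class of Figla), -0.16 for 1 to 2 kb (Nobox, Tbpl2 and Pou5f1), -0.00 for 2 to 4 kb (Sohlh2 and Lhx8) and 0.21 for 4 kb and over (Taf4b, Sall4 and Stat3). For MG against MZ the medians were -0.23, -0.11, 0.00 and 0.18, and for MZ against WT none was further from 0 than 0.02. With the trend on length removed from each library, an alternative added after seeing the data, the log2 fold change for MG against WT was -0.50 for Figla, -0.94 for Pou5f1, 1.58 for Tbpl2, 0.49 for Taf4b, 0.59 for Stat3 and 0.03 for Sall4. Figla for MZ against WT was -0.87 after the same step. The part of length in the values of the factors was not tested beyond this.

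**Figure D4:**
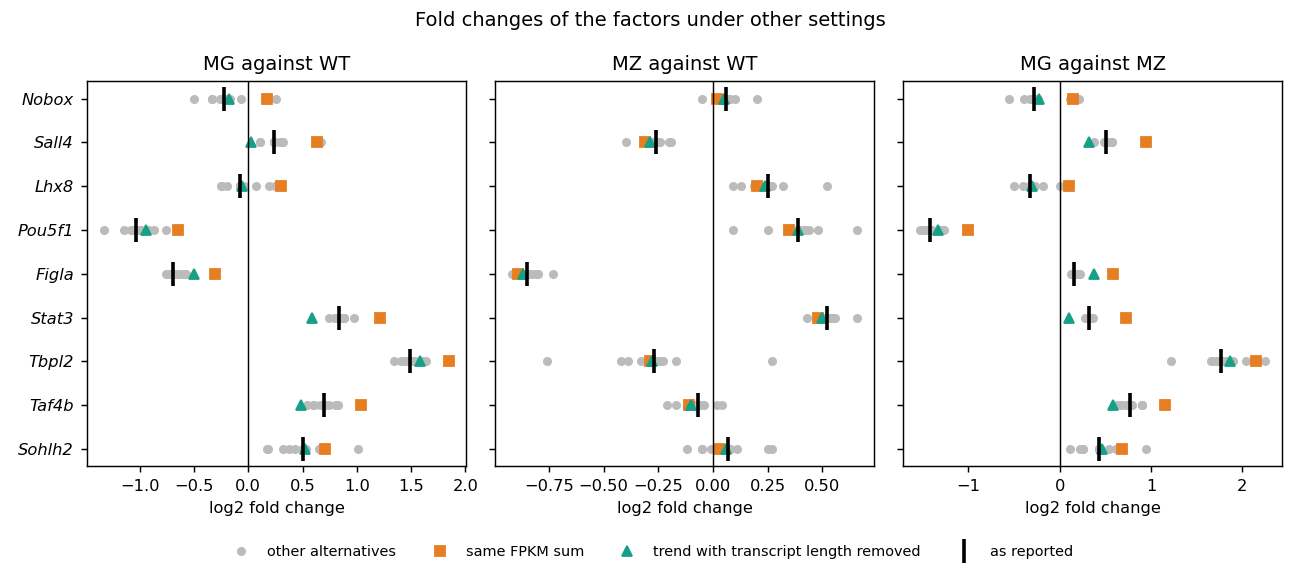
Log2 fold change of each of the 9 tested factors under the analysis as reported (black bar), with all libraries scaled to the same FPKM sum (orange squares), with the trend on transcript length removed (green triangles) and under the other alternatives (grey points), in one panel per comparison. Pou5f1 stays below 0 and Tbpl2, Taf4b and Stat3 above 0 under all settings of MG against WT, while Nobox and Lhx8 lie on both sides of 0.

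Partners and relatives of the factors were read from a list of 37 genes, which holds E-proteins, LIM-domain binding proteins, general transcription factors, and Janus kinase and Stat family genes. Of these, 35 have a row and 26 were tested, and 0 passed by limma in any comparison. At an unadjusted limma p under 0.05 there were 4, 2 and 6 of the 26 in MG to WT, MZ to WT and MG to MZ, beside 17.7%, 6.30% and 17.6% of all tested genes. Their median log2 fold changes were 0.00, -0.06 and 0.11 in that order, against 0.04, 0.01 and 0.04 over all tested genes. With the same FPKM sum 1 partner, Kdm1b, a histone demethylase gene of oocytes, passed for MG against WT and for MG against MZ (55.4 ± 18.8 FPKM in WT, 116 ± 22.0 in MG and 49.7 ± 5.15 in MZ, SD, n = 3 each). On the FPKM as deposited its limma adjusted p was 0.091 and 0.078 for these pairs. Over all tested genes 66 and 31 passed for these pairs with the same FPKM sum, against 37 and 14 as deposited. In MG relative to MZ 1 partner passed with those groups alone in the fit, 2 with a replicate block and 1 without WT replicate 1. Over all tested genes 73, 159 and 214 passed in these settings. For MG against WT the ends of the list were Tcf12, an E-protein that pairs with basic helix-loop-helix factors (1.93 ± 0.793 FPKM in WT and 6.47 ± 1.91 in MG, log2 fold change 1.35 ± 0.55, limma adjusted p = 0.24), and Ldb1, an adaptor of LIM homeobox proteins (5.38 ± 1.97 and 2.17 ± 1.14 FPKM, log2 fold change -1.02 ± 0.41, limma adjusted p = 0.24).

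For MZ against WT the ends were Gtf2b, the general factor TFIIB, at 0.58 ± 0.34 (limma adjusted p = 0.82), and Tbpl1, a further relative of the TATA-binding protein, at -1.18 ± 0.44 (limma adjusted p = 0.74). The same pair, in the opposite order, ended the list for MG against MZ, with Tbpl1 at 1.72 ± 0.44 (limma adjusted p = 0.088) and Gtf2b at -1.43 ± 0.34 (limma adjusted p = 0.082). Gtf2b passed for MG against MZ without WT replicate 1 (limma adjusted p = 0.032) and with a replicate block (limma adjusted p = 0.030). Its value for MZ against WT was 0.97 without WT replicate 1 and 0.38 without WT replicate 2. Gtf2b was at 187 ± 94.7 FPKM in WT, 99.7 ± 32.9 in MG and 262 ± 47.7 in MZ, and Tbpl1 at 2.53 ± 1.80, 3.75 ± 0.540 and 0.486 ± 0.429 FPKM (SD, n = 3 each). Of the 9 genes with a row that did not pass the filter, Nanog and Sox2, pluripotency partners of Pou5f1, and Sall1, a relative of Sall4, were picked after their values were seen. Nanog and Sall1 were listed at 0 in all 9 libraries, and Sox2 reached 0.971 FPKM at most.

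Oocyte genes that these factors are known to act on were read from a list of 22 genes, all of them tested, and 0 passed by limma in any comparison. In MG relative to MZ, 5 passed without WT replicate 1 and 4 without MG replicate 1, and 4 with a replicate block and 3 with those groups alone in the fit. Over all tested genes 214, 210, 159 and 73 passed in these settings, against 14 as reported, so calls rose for genes at large. For MG against WT 4 had a positive and 18 a negative log2 fold change, for MZ against WT 16 and 6, and for MG against MZ 3 and 19. The medians were -0.38, 0.31 and -0.65, beside 0.04, 0.01 and 0.04 over all tested genes. These directions depended on the scaling: with quantile normalization 13 of the targets were positive and 9 negative for MG against WT (median 0.15), 15 and 7 for MZ against WT (0.20), and 10 and 12 for MG against MZ (-0.04). With the same FPKM sum they were 11 and 11 (median 0.01, beside 0.36 over all tested genes), 15 and 7 (0.27 beside -0.03), and 8 and 14 (-0.22 beside 0.39). The values for MG also moved with MG 3, the lowest MG library for Zp3 and for the oocyte marker sum. All oocyte markers but Ddx4 are also targets, so that sum is not a separate view of MG 3. Without MG 3, 9 targets were positive and 13 negative for MG against WT (median -0.05), and 4 and 18 for MG against MZ (-0.26). With any other library left out, 4 to 6 targets were positive for MG against WT, with medians from -0.62 to -0.29. For MZ against WT 15 to 17 were positive, with medians from 0.18 (without WT replicate 2) to 0.49 (without WT replicate 1). An unadjusted limma p under 0.05 was found for 5, 1 and 12 of the 22 in that order, beside 17.7%, 6.30% and 17.6% of all tested genes. In MG against WT the groups did not overlap for 1 higher and 5 lower targets, beside 11.6% and 9.89% of all tested genes. In MZ against WT there were 6 higher and 2 lower, beside 5.67% and 6.52%, and in MG against MZ 2 higher and 13 lower, beside 12.8% and 12.3%. Since many of these genes are among the oocyte's most abundant, their levels also enter the summed FPKM that was lowest in MG, and the part of that sum in these values was not tested.

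Among the targets Zar1, a maternal RNA-binding protein gene, had the most negative value for MG against WT (3857 ± 1396 FPKM in WT and 1998 ± 1124 in MG, log2 fold change -1.10 ± 0.43, limma adjusted p = 0.22). Nlrp5, a subunit of the subcortical maternal complex, had the most positive (687 ± 315 and 995 ± 64.6 FPKM, log2 fold change 0.63 ± 0.27, limma adjusted p = 0.26). For MZ against WT the ends were Oosp1, an oocyte-secreted protein gene, at 0.92 ± 0.45 (limma adjusted p = 0.79) and Tcl1, an Akt co-activator gene, at -0.32 ± 0.22 (limma adjusted p = 0.85). Oosp1 was at 1196, 353 and 343 FPKM in the WT libraries and 1127, 950 and 922 in the MZ libraries, so WT 1 stood with MZ. Without WT replicate 1 its log2 fold change for MZ against WT was 1.51 (limma adjusted p = 0.22), and it was 0.64 without WT replicate 2 and 0.61 without WT replicate 3. For MG against MZ they were Nlrp5 at 0.90 ± 0.27 (limma adjusted p = 0.12) and Oosp1 at -1.84 ± 0.45 (limma adjusted p = 0.084). For that pair the limma adjusted p of Oosp1 was 0.022 without WT replicate 1 and 0.045 without MG replicate 1. It was 0.029 with a replicate block and 0.047 with only the 2 groups compared. With any other library left out it lay between 0.092 and 0.24. The limma adjusted p of Nlrp5 was 0.047 with only the 2 groups compared and 0.11 with a replicate block. For MG against WT the value of Zar1 was -0.52 without MG replicate 3, and that of Nlrp5 was 0.32 without WT replicate 1 and 0.98 without WT replicate 3. Zp3, shown above and chosen for its sequence, was at 1322, 1061 and 1199 FPKM in the WT libraries, 1402, 1089 and 555 in the MG libraries, and 1454, 1550 and 1406 in the MZ libraries. Figla was lower in all MZ libraries than in all WT libraries, whereas Zp3 was higher in all MZ libraries, with a log2 fold change of 0.30 ± 0.29 (limma adjusted p = 0.89).

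**Figure D5:**
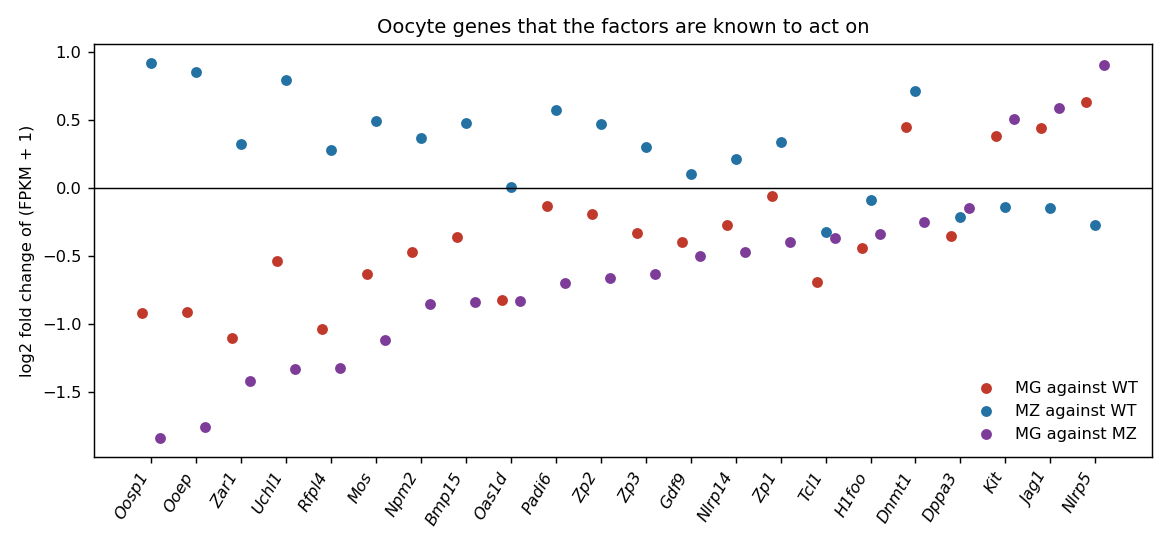
Log2 fold change of (FPKM + 1) of the 22 oocyte genes that the factors are known to act on, in MG against WT (red), MZ against WT (blue) and MG against MZ (purple), ordered by the last. For MG against MZ 19 of the 22 points lie below 0, and for MZ against WT 16 lie above it, and no gene passed the adjusted threshold. With quantile normalization 12 of the 22 lie below 0 for MG against MZ.

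The genes whose pattern over the 9 libraries was most like that of each factor were found by Pearson r of log2(FPKM + 1) among tested genes with a mean of at least 10 FPKM. Genes with clone-type names, such as Rik, Gm and LOC names, were left out of this search. They were Snx22 (r = 0.992) and Nlrp14 (0.955) for Nobox, Rbm18 (0.991) and Elovl5 (0.987) for Pou5f1, Gda (0.976) and Aplp2 (0.959) for Taf4b, and Tsg101 (0.964) and Med17 (0.957) for Lhx8. For Sall4 they were Canx (0.948) and Etaa1 (0.939), for Stat3 Anks4b (0.946) and Hsph1 (0.936), and for Tbpl2 Kti12 (0.924) and Qrich1 (0.917). Sohlh2 was nearest to Mfap1b (0.927) and L3mbtl2 (0.877), and Figla to Msantd4 (0.915) and Azin1 (0.907). These are the highest of about 4154 values each, over 9 points that share library depth and group, and are given as a description.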

How the data were processed

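RNA of the 9 oocyte libraries was amplified by the Smart-seq2 method and made into libraries with a NEBNext Ultra kit, per the labels' protocols. Per the submitters' processing notes, reads were aligned to mm10 with TopHat2 2.0.13 and FPKM were computed by the authors with Cufflinks 2.2.1. The deposited p-value and q-value columns come from Cuffdiff at its defaults, per the series design, and were used only where the authors' deposited table is named. How strand was counted is not stated in the sources used here.

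Of 24255 rows, 27 with a date in place of a symbol were left out. The 10801 genes that reached an FPKM of 1 in 3 or more of the 9 libraries were fitted as log2(FPKM + 1) with limma 3.58.1 (R 4.3.3, eBayes with a variance trend, all 9 libraries, 6 residual degrees of freedom), since FPKM are not counts. Tests were two-sided, with Benjamini-Hochberg adjustment over all tested genes in each of 3 comparisons and a threshold of 0.05. The pseudocount of 1 understates the fold change of low genes. A value of 0 may be an estimate that failed, so such genes are called listed at 0. Fragments behind a value were estimated from the lowest FPKM of 2220 genes with 1 long transcript and the longest GENCODE M21 transcript, and are approximate. Between 78.7% and 86.7% of those lowest values lay within 15% of 1 fragment. The RNA was amplified and the reads carry no stated molecular identifiers, so fragments are not independent molecules. Gene coordinates are GENCODE M21 on GRCm38, 1-based. The fit was also run on simulated data, with no difference in summed FPKM, length trend or outlying library built in. Its changed genes all had higher mean levels than Stat3, Tbpl2, Taf4b and Sohlh2. That run therefore does not show how the fit does for those features or factors.

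The 10 factors, the partner, target and marker lists and the naming rule were chosen with earlier results of these data known. The rule names all 10 factors, the 2 genes of highest r with each tested factor, and from the partner and target lists every gene that passed and the most positive and most negative gene per comparison. Genes outside it are said to be chosen after their values were seen, except Mtor, named for the knockouts, and Zp3, named for its sequence. Single marker genes also lie outside it and were named with their values known. Other settings tried were the pseudocount, filter, scaling, variance trend, libraries in the fit, a replicate block, leaving out each library and, added after seeing the data, removal of the trend on transcript length.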

Additional observations from a re-analysis of the deposited data

How the results depend on the processing

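The 27 fold changes of the 9 tested factors were recomputed under 18 or 19 alternatives each, 510 values in all, of which 488 kept their direction and their side of the threshold, 2 kept their direction and newly passed, and 20 reversed. The 2 were Pou5f1 for MG against MZ with only the 2 groups compared in the fit (-1.42), and without WT replicate 1. The number of factors called for MG against MZ rose from 0 to 1 with only the 2 groups compared, and ran from 0 to 1 with 1 library left out. Reversals were seen for Nobox in MG against WT (same FPKM sum 0.17, quantile normalization 0.26, and -0.50 to 0.17 with 1 library left out, the last without MG replicate 3) and MG against MZ (0.15, 0.21, and -0.56 to 0.11). Lhx8 reversed in MG against WT (0.30, 0.25, and -0.25 to 0.19) and, with those scalings alone, in MG against MZ (0.10 and 0.00). With 1 library left out, MZ against WT ran from -0.05 to 0.20 for Nobox, -0.12 to 0.27 for Sohlh2 (-0.05 with quantile normalization), -0.76 to 0.27 for Tbpl2 and -0.21 to 0.04 for Taf4b. Sohlh2 had no value with the filter at 5 FPKM, which it did not pass.

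The number of all genes called for MG against WT, 37 as reported, was 17 with no filter, 66 with the same FPKM sum, 21 with quantile normalization, 5 with only the 2 groups compared, and 3 to 24 with 1 library left out. For MZ against WT, 4 as reported, it was 2 with a pseudocount of 0.1, 2 with no filter, 0 with a filter of 5 FPKM, 1 with the same FPKM sum, 1 with quantile normalization, 7 with no variance trend, and 0 to 6 with 1 library left out. For MG against MZ, 14 as reported, it was 6 with a pseudocount of 0.1, 9 with no filter, 31 with the same FPKM sum, 9 with no variance trend, 73 with only the 2 groups compared, and 0 to 214 with 1 library left out (214 without WT replicate 1 and 210 without MG replicate 1, and 9 or fewer without any other). The split of calls into higher and lower also moved: for MG against WT from 20 and 17 to 61 and 5 (same FPKM sum), 16 and 5 (quantile) and 20 and 10 (upper quartile), and for MG against MZ from 8 and 6 to 25 and 6 (same FPKM sum), 9 and 4 (quantile), 19 and 54 (only the 2 groups compared), 33 and 126 (replicate block), 55 and 159 (without WT replicate 1) and 39 and 171 (without MG replicate 1). The cause was not tested.

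The replicate numbers are shared between groups by label only. Over 9 pairs of libraries with the same number the correlation of deviations ran from -0.07 to 0.07, 0 of 9 were over 0.1, and 3 of 9 libraries correlated best with their own number, so the numbers were not taken as a pairing. With a replicate block 13 genes were called for MG against WT, 0 for MZ against WT and 159 for MG against MZ. Depth limits Sohlh1, Sohlh2 and Tbpl2 most, with no more than 14 fragments behind any library's value, and Figla (7 to 17) and Taf4b (7 to 35) next.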
